A study of Arabidopsis thaliana with 6 samples.

Results

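The Aux/IAA repressors and the ARF (auxin response factor) transcription factors of Arabidopsis thaliana were compared between a gbpl3 mutant and its Col-0 wild type. The 44 genes, 29 Aux/IAA and 15 ARF, were taken from the deposited count table by gene identifier, and all 44 of them were among its 32833 genes. The rule used the gene family and no measured value. Messenger RNA was sequenced from whole, untreated 7-day-old seedlings grown on dilute MS medium with 1% sucrose, with 3 libraries of wild type and 3 of gbpl3. GBPL3 belongs to the guanylate-binding-like GTPases and is placed at the nuclear pore basket by the study. The labels name no allele. They number the genotype of the mutant libraries from 1 to 3, which was read as replicates because the design text gives triplicates; if the numbers stood for 3 alleles or lines, the mutant spread would include differences between them. Nothing in the labels tells separate cultures from repeat extractions, so the p-values reflect only how these samples vary among themselves, and that variation may be technical. In whole seedlings, fewer cells of a type and less RNA per cell cannot be told apart.

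Auxin acts by removing Aux/IAA proteins. In its absence an Aux/IAA protein binds an ARF on the promoter of an auxin-responsive gene and recruits TOPLESS corepressors; auxin joins the Aux/IAA degron to a TIR1/AFB receptor, the repressor is degraded and the ARF is freed. Many Aux/IAA genes are themselves ARF targets, so their messages rise quickly after auxin and form a negative feedback, whereas most ARF genes respond little to auxin. In young seedlings the pathway controls lateral root initiation, vascular and meristem patterning, tropisms and hypocotyl growth.

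GBPL3 itself, the gene named in the mutant label, had 790, 827 and 646 counts for wild type, and 156, 243 and 168 for gbpl3. Its level fell in every mutant library, with a log2 fold change of -2.04 (SE 0.12, adjusted p = 5.11e-09). Here and below, values of 3 libraries are in the order of replicates 1 to 3, and p-values come from the quasi-likelihood test of edgeR, adjusted by Benjamini-Hochberg across the 20677 genes that passed its filter on low counts. A gene was called at an adjusted p below 0.05. Total counts were 9530643 to 12104120 in wild type and 10836165 to 12911891 in gbpl3, and 3 counts in the smallest library correspond to 0.315 CPM (counts scaled to library size). On the second principal component (18.0% of the variance), wild-type replicates 1, 2 and 3 stood at 28.4, -42.6 and 10.1. In a chi-square comparison of counts, however, replicate 2 was nearer replicate 3 (5.78 per degree of freedom) than replicate 1 was (6.85). Results that turn on replicate 2 are given without it, which does not mark it as the faulty library. Of 11 seed markers, 5 (CRU2, CRU3, SESA1, SESA3 and SESA4) had no count in wild type. The summed level of all 11 was 0.262 to 3.27 CPM in wild type against 25.9, 103 and 246 CPM in gbpl3 replicates 1 to 3. All 6 tested markers were called higher. They passed the count filter mainly through their gbpl3 counts: OLEO1 had 1, 1 and 1 counts for wild type, and 10, 46 and 102 for gbpl3. A tested marker could therefore hardly come out lower, and the count of 6 adds no separate support. The summed level of 6 shoot markers was 37375 to 43386 CPM in wild type and 43793 to 51377 CPM in gbpl3, with 2 of 6 higher. The 8 root markers summed to 217 to 261 CPM and 209 to 246 CPM, with 1 of 8 lower.

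Among the repressors and ARFs, 3 genes rose in gbpl3 and none was called lower. They were IAA29, an auxin-induced Aux/IAA gene known for its part in shade-regulated growth; ARF5 (MP, MONOPTEROS), the activator that patterns vascular tissue and the embryonic root; and ARF11, a repressor-class ARF. Their folds were 1.62 for IAA29, 1.55 for ARF5 and 1.72 for ARF11. Of the 44 genes, 38 passed the count filter, so 7.89% of those tested were called, beside 10.7% of all tested genes (6.06% higher and 4.69% lower): the share called was close to the background. No member fell at an unadjusted p below 0.05 either, and DESeq2, which called 3.87% of all genes lower and 9.04% in either direction, called no member lower. An unadjusted p below 0.05 was reached by 8 of the 38 members, beside 23.6% of all tested genes. Fold changes of tested members ran from -0.45 to 0.79 on the log2 scale with a median of 0.16, and 27 of 38 were positive (71.1%), beside a median of -0.0034 and 49.5% positive over all tested genes. Without wild-type replicate 2, the members' median was 0.21 and 33 of 41 were positive, and 6 members were called beside 12.7% of all genes. Without wild-type replicate 1 the median was 0.105, with 28 of 40 positive. Limma on log2 FPKM called none of the 3, nor any other member.

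**Figure D1:**
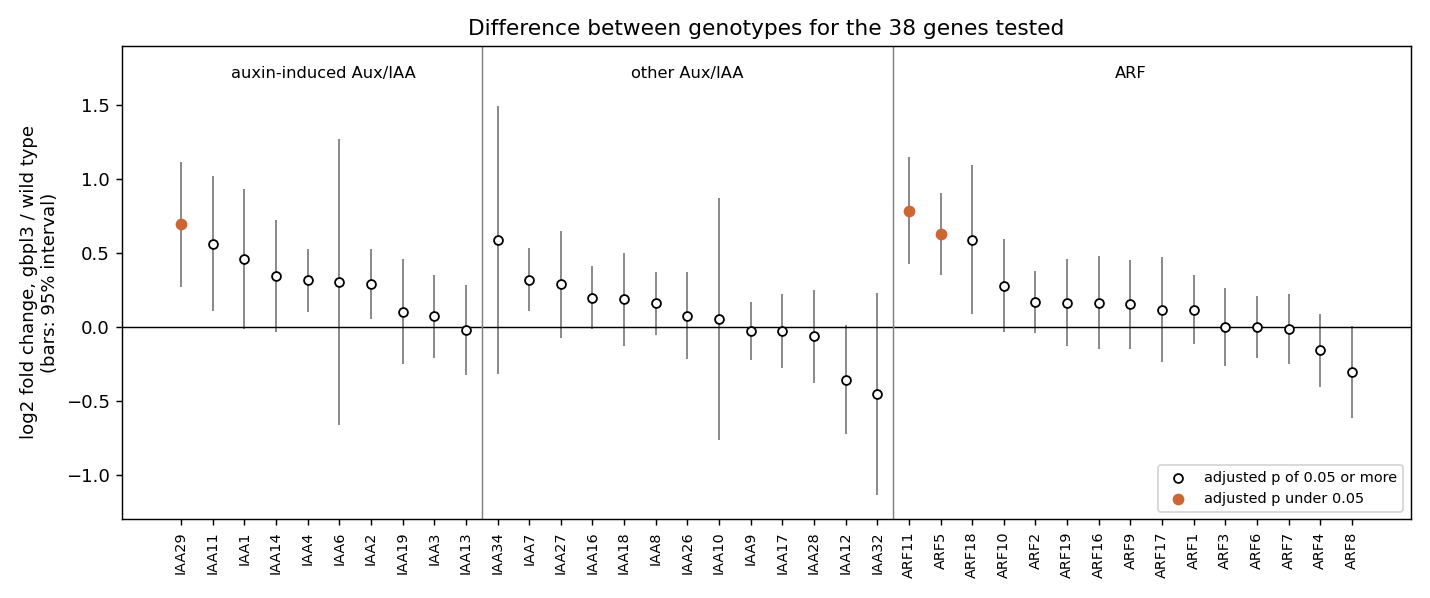
Log2 fold change of gbpl3 over wild type (vertical axis) for the 38 tested Aux/IAA and ARF genes, grouped by class and ordered within each by size; bars are 95% intervals and filled points have an adjusted p below 0.05. The 3 filled points are IAA29, ARF11 and ARF5, at 0.63 to 0.79, and 27 of the 38 points lie above 0.

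IAA29 (AT4G32280, chr4:15583332-15584903, plus strand) had 6.28, 10.8 and 9.81 normalised CPM for wild type, and 14.96, 15.9 and 12.6 for gbpl3. Every gbpl3 library exceeded every wild-type library, and wild-type replicate 1 was the lowest of the 6. The log2 fold change was 0.69 (SE 0.20, 95% interval 0.27 to 1.12, adjusted p = 0.0335) from 72, 131 and 96 counts for wild type, and 158, 205 and 135 for gbpl3. This call rested on the full set of libraries: the adjusted p was 0.136 without wild-type replicate 1, 0.0659 without wild-type replicate 3, and 0.111, 0.115 and 0.0580 without gbpl3 replicates 1, 2 and 3. Only without wild-type replicate 2 was IAA29 called among the fits with a library left out (log2 fold change 0.86, adjusted p = 0.0111).

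ARF5 (AT1G19850, chr1:6886669-6891404, plus strand) had 23.3, 23.4 and 22.0 normalised CPM for wild type, and 41.5, 30.5 and 34.4 for gbpl3. The wild-type libraries lay close together and below all gbpl3 libraries, of which replicate 1 was the highest. The log2 fold change was 0.63 (SE 0.13, 95% interval 0.35 to 0.90, adjusted p = 0.00494). The ARF5 call held with each library left out, at log2 fold changes of 0.50 to 0.73 and an adjusted p of at most 0.0467. The ARF5 exons overlap a gene on the opposite strand, AT1G19860, by 23 bases, and the strand setting of the counting is not given in the sources used here.

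ARF11 (AT2G46530, chr2:19104632-19108486, plus strand) had 9.07, 11.7 and 11.9 normalised CPM for wild type, and 22.4, 16.9 and 16.8 for gbpl3. The genotypes did not overlap, and again gbpl3 replicate 1 was the highest. Its log2 fold change was 0.79 (SE 0.17, 95% interval 0.42 to 1.15, adjusted p = 0.00662). Without gbpl3 replicate 1 the ARF11 value was 0.64 with an adjusted p of 0.0614. The seed and shoot marker sums also differed between the genotypes, and their part in these results was not tested. Neither IAA29 nor ARF11 shares exon bases with another annotated gene.

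**Figure D2:**
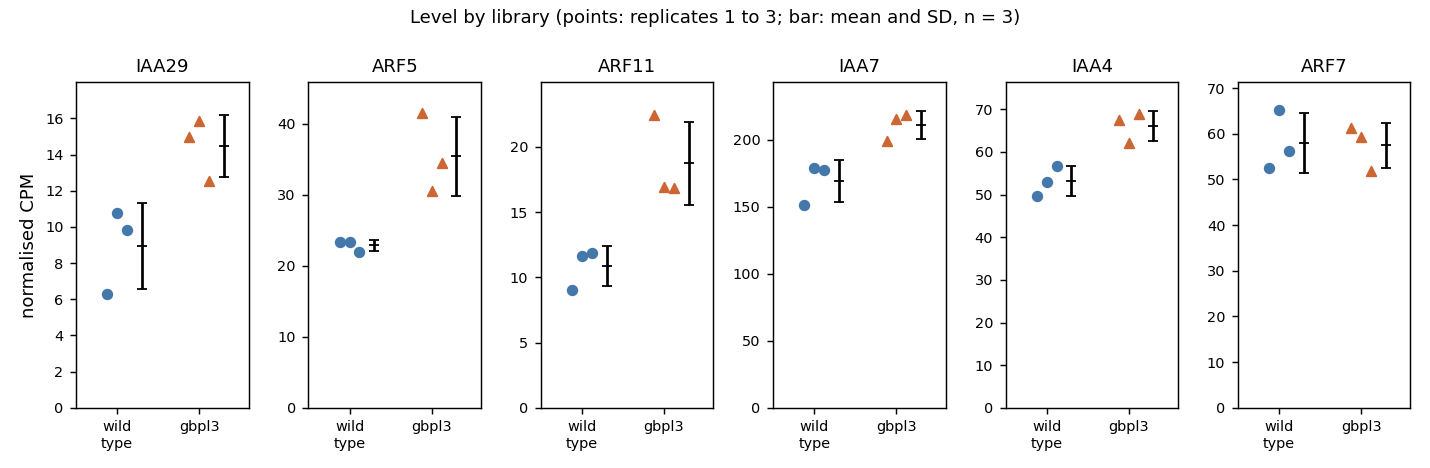
Normalised CPM (vertical axes, from 0) of 6 genes in each wild-type library (circles) and gbpl3 library (triangles), with mean and SD (n = 3) beside each genotype. IAA29, ARF5, ARF11, IAA7 and IAA4 show no overlap between genotypes; ARF7 overlaps, with means of 58.0 ± 6.58 and 57.4 ± 4.98 CPM.

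**Figure D3:**
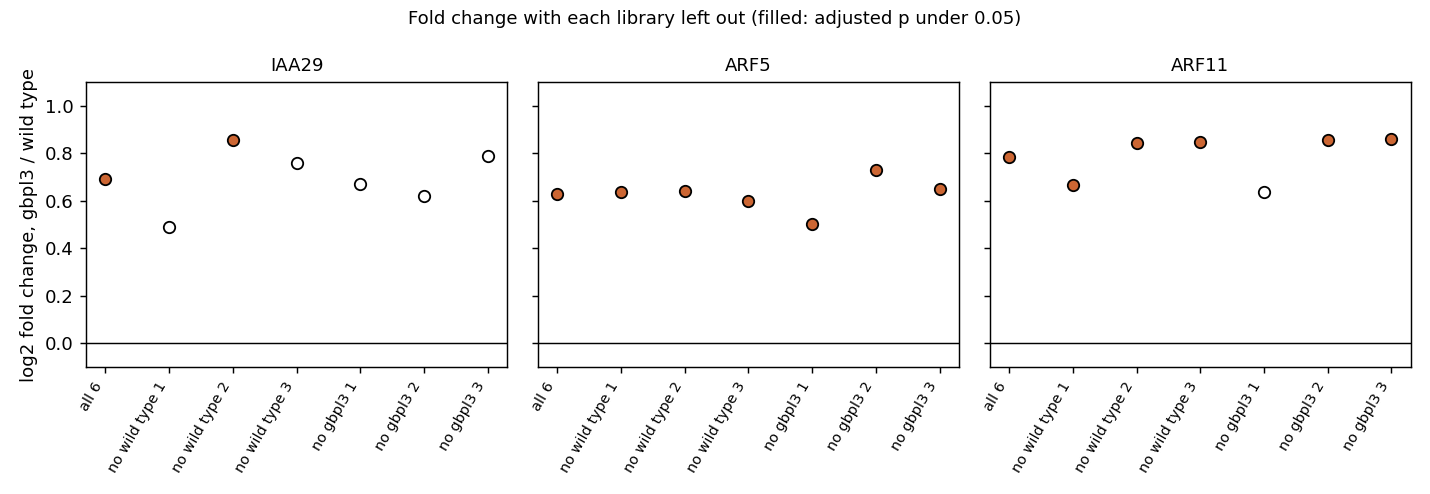
Log2 fold change of gbpl3 over wild type (vertical axis) for IAA29, ARF5 and ARF11 with all 6 libraries and with each one left out (horizontal axis); filled points have an adjusted p below 0.05. ARF5 is filled throughout, ARF11 is open without gbpl3 replicate 1, and IAA29 is filled only with all libraries and without wild-type replicate 2.

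The promoters of the 3 genes that rose are shown beside the promoter of an auxin-induced Aux/IAA gene. Each line gives the 250 bases before the annotated start (RefSeq, TAIR10.1, plus strand, read toward the gene), with matches to the auxin response elements TGTCTC and TGTCGG and to the G-box CACGTG in capitals; these motifs were searched on both strands. IAA19, which was chosen for its motifs after they were seen, is the last line.
IAA29 (chr4:15583082-15583331): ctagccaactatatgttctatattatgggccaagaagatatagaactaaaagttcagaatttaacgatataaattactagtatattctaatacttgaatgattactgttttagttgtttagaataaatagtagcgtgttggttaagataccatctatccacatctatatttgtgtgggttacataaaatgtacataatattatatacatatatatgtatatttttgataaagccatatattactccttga
ARF5 (chr1:6886419-6886668): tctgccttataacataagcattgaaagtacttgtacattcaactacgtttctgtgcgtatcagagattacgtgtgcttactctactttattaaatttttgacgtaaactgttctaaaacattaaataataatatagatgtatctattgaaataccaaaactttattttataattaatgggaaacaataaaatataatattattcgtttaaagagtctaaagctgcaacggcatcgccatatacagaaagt
ARF11 (chr2:19104382-19104631): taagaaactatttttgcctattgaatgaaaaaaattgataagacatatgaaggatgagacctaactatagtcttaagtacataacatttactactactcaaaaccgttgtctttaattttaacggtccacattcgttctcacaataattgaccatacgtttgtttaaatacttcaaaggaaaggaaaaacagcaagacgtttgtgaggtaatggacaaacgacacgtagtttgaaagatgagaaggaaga
IAA19 (chr3:5263751-5264000): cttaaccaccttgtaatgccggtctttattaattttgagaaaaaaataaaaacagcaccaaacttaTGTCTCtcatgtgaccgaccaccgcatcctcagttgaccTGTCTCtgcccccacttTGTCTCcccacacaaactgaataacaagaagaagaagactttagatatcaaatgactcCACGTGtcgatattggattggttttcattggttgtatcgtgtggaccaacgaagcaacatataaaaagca
No capitals stand in the windows of IAA29, ARF5 or ARF11, whereas IAA19 holds TGTCTC or its reverse complement at 184, 145 and 128 bases and CACGTG at 70 bases before its start. The auxin-induced IAA2, IAA3, IAA4, IAA11 and IAA14 also had none of the 3 motifs in that window, while IAA1, IAA5, IAA6, IAA13, IAA20 and IAA30 had at least 1. The lack of a motif thus does not set the 3 genes that rose apart. Within 1000 bases, IAA29 had 1 TGTCGG (572 bases before the start), ARF11 had 1 CACGTG (485 bases) and ARF5 had none of the 3 motifs. IAA19, a repressor of the ARF7-dependent bending response, did not pass the test: its log2 fold change was 0.10 (95% interval -0.25 to 0.46).

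TGTCTC stood within 250 bases of the start in 10 of the 44 members (22.7%), beside 10.9% of 27443 annotated genes. By class it was in 6 of 13 auxin-induced Aux/IAA genes, 3 of 16 other Aux/IAA genes and 1 of 15 ARF genes. TGTCGG was in 18.2% of members and 4.16% of all genes, and CACGTG in 9.09% and 6.49%. Over 1000 bases the shares were 52.3% against 39.6% for TGTCTC, 29.5% against 14.6% for TGTCGG and 27.3% against 14.8% for CACGTG. A match describes the letters of a window and not a bound site.

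The Aux/IAA family was then described by level. CPM were divided by the kilobases of exon so that levels could be compared between genes. IAA9 was the most abundant repressor message per kilobase, with 119 ± 2.60 normalised CPM per kilobase (SD, n = 3) in wild type and 117 ± 6.22 in gbpl3. It was followed by IAA7 (AXR2), with 88.7 ± 8.12 and 111 ± 5.43, and by IAA16, with 82.7 ± 6.88 and 94.8 ± 6.28. Those 3 genes and IAA8 together held 58.9% ± 0.589 of the summed Aux/IAA level in wild type and 58.4% ± 0.851 in gbpl3 (SD, n = 3). The 8 highest places among all 44 members, headed by IAA9, IAA7, IAA16, IAA8 and ARF2, were in the same order in both genotypes; in wild type the ranges of mean ± SD overlapped for IAA7 and IAA16, for IAA8 and ARF2, and for IAA2, IAA4 and IAA17.

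**Figure D4:**
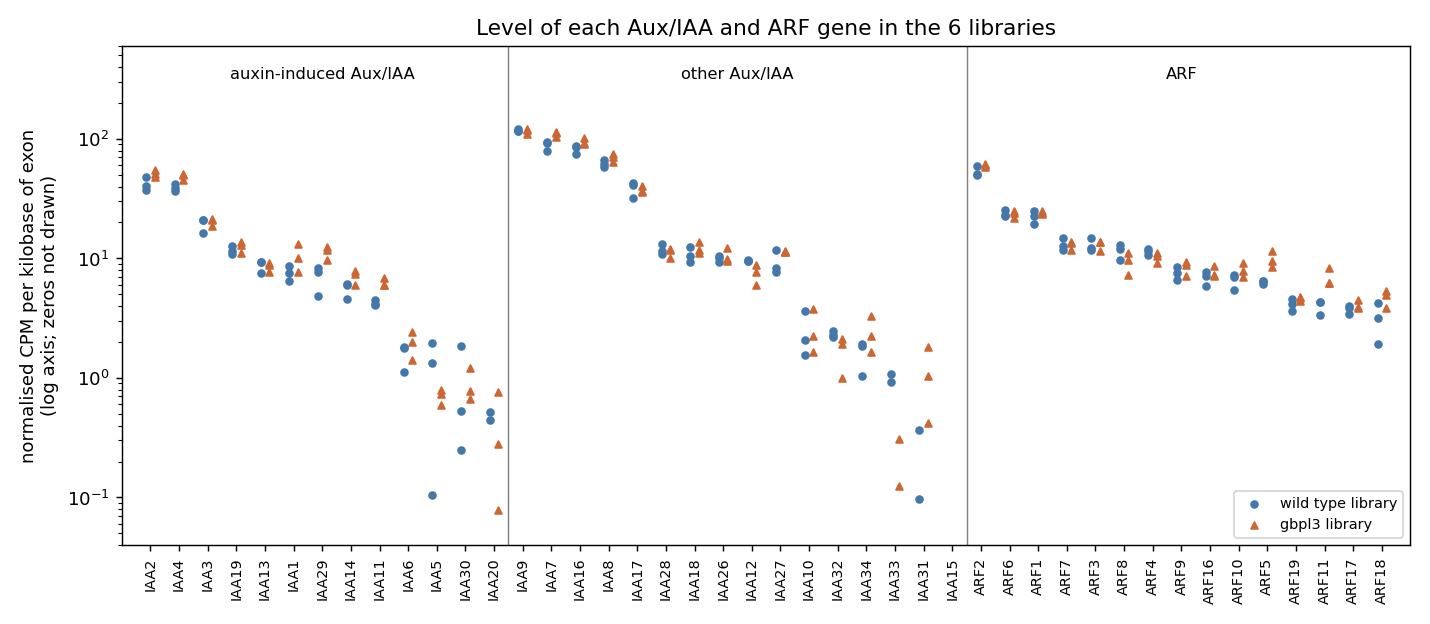
Normalised CPM per kilobase of exon (log axis) of each of the 44 genes in each wild-type library (circles) and gbpl3 library (triangles), by class and in order of level; zeros are not drawn. IAA9, IAA7, IAA16 and IAA8 lead the repressors and ARF2 leads the ARFs in both genotypes, and IAA15, with no count, has no point.

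At the other end, 6 Aux/IAA genes had too few counts to be tested. IAA15 had no count in any library, which in the smallest library allows up to 0.315 CPM. Summed over the wild-type and over the gbpl3 libraries, IAA5 had 28 and 19 counts, IAA20 had 10 and 12, IAA30 had 27 and 30, and IAA33 had 16 and 4. IAA31 had 1, 4 and 0 counts for wild type, and 17, 12 and 4 for gbpl3. The last is the only one of the 6 that any alternative fit called: without wild-type replicate 2 its log2 fold change was 4.07 (adjusted p = 0.0318), while with no filter on low counts the adjusted p was 0.0963 and with DESeq2 it was 0.114. Leaving out replicate 2 removed the wild-type library with the most IAA31 counts. The gene then passed the filter only through gbpl3 libraries, so that call is no support for a rise. IAA20, IAA30, IAA31 and IAA33 are among the Aux/IAA proteins without a canonical degron, and the related IAA32 and IAA34 were also rare, at 2.32 ± 0.134 and 1.602 ± 0.495 normalised CPM per kilobase (SD, n = 3) in wild type. Of the IAA32 exon bases, 826 overlap AT2G01210 on the opposite strand, and 125 of IAA34 overlap AT1G15060 on the same strand. How reads in such overlaps were counted is not given in the sources used here, so these 2 levels are uncertain.

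Within the auxin-induced Aux/IAA genes (IAA1 to IAA6, IAA11, IAA13, IAA14, IAA19, IAA20, IAA29 and IAA30, a grouping from background knowledge), 10 of 13 were tested and IAA29 alone was called. Fold changes of 9 of the 10 were positive, from -0.02 for IAA13 to 0.69 for IAA29 on the log2 scale, with a median of 0.31. With each library left out, this median ran from 0.22 (without wild-type replicate 1, 11 genes) to 0.38 (without wild-type replicate 3, 10 genes). It was 0.26 over 12 genes without wild-type replicate 2. The median SE of a log2 fold change in this class was 0.18, and 4 of the 10 had an unadjusted p below 0.05, beside 23.6% of all tested genes.

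IAA2, IAA4 and IAA3 had the highest levels per kilobase in this class. IAA4 had 49.7, 53.1 and 56.7 normalised CPM for wild type, and 67.4, 62.0 and 68.8 for gbpl3. Its genotypes did not overlap, with all gbpl3 libraries higher, but its log2 fold change of 0.31 (95% interval 0.10 to 0.53) missed the threshold (adjusted p = 0.0584). IAA2 had 54.4, 50.4 and 65.6 normalised CPM for wild type, and 74.0, 68.9 and 65.5 for gbpl3. Replicate 3 was as high in wild type as in gbpl3, and its log2 fold change was 0.29 (95% interval 0.055 to 0.53, adjusted p = 0.113).

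IAA3 (SHY2), the repressor that limits root meristem size downstream of cytokinin, had 22.2, 28.3 and 28.4 normalised CPM for wild type, and 29.3, 25.4 and 28.4 for gbpl3. Its groups overlapped, with a log2 fold change of 0.071 (95% interval -0.21 to 0.35, adjusted p = 0.813); 536 of its exon bases overlap AT1G04230 on the opposite strand. IAA14 (SLR, SOLITARY-ROOT), which holds back lateral root initiation by ARF7 and ARF19, had 8.72, 11.3 and 11.6 normalised CPM for wild type, and 13.9, 11.4 and 14.8 for gbpl3. One gbpl3 library lay among the wild-type libraries, and its log2 fold change was 0.34 (95% interval -0.036 to 0.73, adjusted p = 0.265).

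Of the other 16 Aux/IAA genes, 13 were tested and edgeR called none, while DESeq2 called 1 of them, IAA7, which was also the only one with an unadjusted p below 0.05 in edgeR. The median log2 fold change was 0.077 and 8 of 13 were positive, but this median depended on the libraries: with each left out it ran from 0.066 (without gbpl3 replicate 3) to 0.22 (without gbpl3 replicate 2), and it was 0.16, 0.13 and 0.13 without wild-type replicates 2 and 3 and gbpl3 replicate 1. IAA7, which represses growth and gravitropism, had 151, 179 and 177 normalised CPM for wild type, and 199, 215 and 219 for gbpl3. Every gbpl3 library was above every wild-type library; the log2 fold change was 0.32 (SE 0.10, 95% interval 0.11 to 0.53), and its adjusted p of 0.0503 lay just outside the threshold. The IAA7 adjusted p was 0.0210 with DESeq2, 0.0497 with RLE scaling and 0.0342 without wild-type replicate 2. It was 0.0746 with the replicate number as a block, 0.159 to 0.169 with limma, 0.147 and 0.107 without wild-type replicates 1 and 3, and 0.0974, 0.119 and 0.177 without gbpl3 replicates 1, 2 and 3.

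IAA9 had 251, 251 and 261 normalised CPM for wild type, and 253, 261 and 235 for gbpl3. The genotypes overlapped, and the interval of its log2 fold change, -0.23 to 0.17, was the narrowest of the 38 tested members (adjusted p = 0.904). IAA16 had 152, 178 and 173 normalised CPM for wild type, and 187, 182 and 206 for gbpl3. Its gbpl3 libraries were all above its wild-type libraries by a small margin, at a log2 fold change of 0.20 (95% interval -0.014 to 0.41, adjusted p = 0.248). IAA17 (AXR3), a repressor whose stabilised form blocks root gravitropism, had 56.5, 53.8 and 42.1 normalised CPM for wild type, and 47.8, 53.4 and 48.2 for gbpl3. Its groups overlapped and its log2 fold change was -0.031 (95% interval -0.28 to 0.22, adjusted p = 0.920).

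IAA12 (BODENLOS), the repressor partner of ARF5 in the embryo, is given after its values were seen because its estimate had the opposite sign. It had 14.3, 14.5 and 14.3 normalised CPM for wild type, and 11.6, 8.97 and 13.2 for gbpl3. All gbpl3 libraries lay below all wild-type libraries, but the log2 fold change of -0.36 (95% interval -0.72 to 0.01) did not pass the test (adjusted p = 0.225). Over all 38 tested members, the libraries of the genotypes did not overlap for 7 genes higher in gbpl3 (IAA4, IAA7, IAA11, IAA16, IAA29, ARF5 and ARF11) and 2 lower (IAA12 and IAA32), beside 14.5% and 13.6% of all tested genes.

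Of the Aux/IAA genes, 3 pairs lie back to back with no coding gene between them. IAA1 and IAA14 are 10732 bases apart on chromosome 4 and had log2 fold changes of 0.46 and 0.34; IAA2 and IAA7, 12510 bases apart on chromosome 3, had 0.29 and 0.32; IAA3 and IAA17, 6388 bases apart on chromosome 1, had 0.071 and -0.031. IAA7 and IAA17 are the members of these pairs outside the auxin-induced class. Only IAA13 had exon sequence repeated elsewhere in the genome (8 of its 2220 runs of 50 bases), and the other 43 members had none.

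All 15 ARF genes were tested, and ARF5 and ARF11 rose. The median log2 fold change was 0.15, 10 of 15 were positive, and values ran from -0.30 for ARF8 to 0.79 for ARF11. Single libraries moved the ARF median both ways: it was 0.077 without wild-type replicate 1 (10 of 15 positive), 0.093 without gbpl3 replicate 2 (11 of 15) and 0.24 without wild-type replicate 2 (13 of 15), where ARF18, a repressor-class ARF, was called as well. The share called in the auxin-induced Aux/IAA class, 1 of 10, and in the ARF class, 2 of 15, were both close to the 10.7% of all genes; the difference between the classes was not tested, since genes of a class share libraries and sequence and are not replicates.

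The activator ARFs, which carry a glutamine-rich middle region, had 1 of 5 called, ARF5. Fold changes of 2 of 5 were positive and the median was -0.0035 on the log2 scale, while without wild-type replicate 2 or gbpl3 replicate 3 it was 0.080 or 0.058 with 4 of 5 positive. ARF7 (NPH4), which acts in tropism and lateral root initiation, had 52.5, 65.3 and 56.2 normalised CPM for wild type, and 61.3, 59.3 and 51.8 for gbpl3. ARF19, its partner in lateral root initiation, had 15.7, 19.8 and 18.1 normalised CPM for wild type, and 20.3, 19.1 and 20.7 for gbpl3. Both overlapped between genotypes, with log2 fold changes of -0.015 (95% interval -0.25 to 0.22, adjusted p = 0.963) and 0.16 (95% interval -0.13 to 0.46, adjusted p = 0.537); the exons of ARF7 share 70 bases with the abundant CPN20 gene on the opposite strand.

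ARF6 and ARF8, paired regulators of flower maturation and hypocotyl growth, are both targets of miR167. ARF6 had 93.0, 103 and 92.8 normalised CPM for wild type, and 97.2, 102 and 89.3 for gbpl3. Its groups overlapped, and its log2 fold change of -0.0035 had a 95% interval of -0.21 to 0.21 (adjusted p = 0.990). ARF8 had 46.7, 35.1 and 43.2 normalised CPM for wild type, and 40.1, 35.0 and 26.1 for gbpl3. Replicate 3 of gbpl3 was the lowest and the groups overlapped, with a log2 fold change of -0.30 (95% interval -0.61 to 0.0048, adjusted p = 0.219).

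Of the 7 repressor-class ARFs, ARF11 rose, and the median log2 fold change was 0.15. ARF2, which limits seed and organ size and promotes ageing, was the most abundant ARF message per kilobase, at 53.6 ± 5.48 normalised CPM per kilobase (SD, n = 3) in wild type and 60.2 ± 2.17 in gbpl3. Its libraries had 193, 232 and 197 normalised CPM for wild type, and 235, 240.4 and 224 for gbpl3. One wild-type library lay within the mutant range, and the log2 fold change was 0.17 (95% interval -0.044 to 0.38, adjusted p = 0.341). ARF1, a close relative of ARF2, had 50.2, 58.8 and 65.0 normalised CPM for wild type, and 61.8, 64.9 and 61.7 for gbpl3. It overlapped too, at 0.12 on the log2 scale (95% interval -0.11 to 0.35, adjusted p = 0.582).

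Members under small RNA control were compared by their target sites, because these set which ARF messages each microRNA can reach. ARF10, ARF16 and ARF17 carry a miR160 site and ARF6 and ARF8 a miR167 site. The microRNAs are printed first, as DNA and with the seed (bases 2 to 8) in capitals, and then the site in each message with the bases that pair in capitals (5′ to 3′, RefSeq TAIR10.1; G:U pairs counted as unpaired).
miR160a-5p (chr2:16340282-16340302, plus): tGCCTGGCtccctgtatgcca
ARF10 (chr2:12115741-12115761, plus): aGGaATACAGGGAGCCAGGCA
ARF16 (chr4:14704141-14704161, minus): gGGttTACAGGGAGCCAGGCA
ARF17 (chr1:29274189-29274209, plus): TGGCATgCAGGGAGCCAGGCA
miR167a-5p (chr3:8108090-8108110, plus): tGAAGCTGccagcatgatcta
ARF6 (chr1:10686478-10686498, minus): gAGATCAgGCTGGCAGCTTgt
ARF8 (chr5:14633841-14633861, plus): TAGATCAgGCTGGCAGCTTgt
All 5 sites lie in coding sequence. Of 21 bases, 19 paired in ARF10, 18 in ARF16 and 20 in ARF17 with miR160a, and 17 in ARF6 and 18 in ARF8 with miR167a; no other ARF exceeded 13 paired bases with miR160a or 14 with miR167a. Log2 fold changes of the miR160 targets were 0.28 for ARF10, 0.16 for ARF16 and 0.12 for ARF17, and none was called by edgeR, by DESeq2 or at an unadjusted p below 0.05. Values of the miR167 targets, given above, were -0.0035 and -0.30.

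Of the 16 genes listed for small RNA control of ARFs, 8 were tested and edgeR and DESeq2 each called none; 2 of the 8 had an unadjusted p below 0.05, a share near the 23.6% of all tested genes. DCL1, the enzyme that cuts microRNA precursors, had a log2 fold change of -0.31 (95% interval -0.54 to -0.077, adjusted p = 0.0847). AGO7, which starts the trans-acting small RNAs against ARF3 and ARF4, had -0.47 (95% interval -0.94 to -0.0089, adjusted p = 0.201), and the precursor gene TAS3 had -0.08. Of the 8 tested genes, 5 had negative and 3 positive fold changes. MIR167D, the only microRNA precursor gene tested, had a log2 fold change of 0.37 (95% interval -0.14 to 0.89, adjusted p = 0.394). DCL1, AGO7, TAS3 and MIR167D are given after their values were seen. ARF3 and ARF4, named above as targets of the trans-acting small RNAs, had log2 fold changes of -0.002 (95% interval -0.27 to 0.26) and -0.16 (95% interval -0.41 to 0.088). Mature microRNAs are not measured by messenger RNA libraries, and 8 precursor genes had too few counts to be tested.

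Levels were also summed over each class in each library. The summed Aux/IAA level was 566, 611 and 620 normalised CPM per kilobase for wild type, against 669, 667 and 675 for gbpl3, without overlap. Auxin-induced Aux/IAA genes summed on that scale to 139, 148 and 161 for wild type, against 186, 179.6 and 175 for gbpl3, also without overlap. Other Aux/IAA genes, at 427, 463 and 459 against 483, 488 and 500, did not overlap either. The ARF sums of 179, 205 and 188 and of 215, 208 and 200.4 did overlap. Within the ARFs, the repressor sums (105, 126.1 and 114 against 130, 126.9 and 126.3) did not overlap. The same held for the miR160 group (16.6, 18.4 and 16.7 against 20.4, 20.1 and 18.8). Activator sums overlapped (57.8, 60.9 and 57.8 against 65.0, 61.0 and 55.3). A sum is weighted to its most abundant members, here IAA9, IAA7, IAA16 and IAA8 in the family and IAA2 and IAA4 in the auxin-induced class, of which none was called.

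The ratio of summed Aux/IAA to summed ARF level was 3.14 ± 0.159 in wild type and 3.23 ± 0.132 in gbpl3 (SD, n = 3), a difference smaller than the spread between replicates. The ratio of activator to repressor ARFs was 0.514 ± 0.0345 and 0.473 ± 0.0327 (SD, n = 3). IAA9 held 19.9% ± 0.778 of the summed Aux/IAA level in wild type and 17.4% ± 1.03 in gbpl3 (SD, n = 3), without overlap between libraries. The level of IAA9 itself had a log2 fold change of -0.029. The IAA7 share went the other way, from 14.8% ± 0.694 to 16.5% ± 0.766, also without overlap. The shares of IAA16 and IAA8 overlapped.

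**Figure D5:**
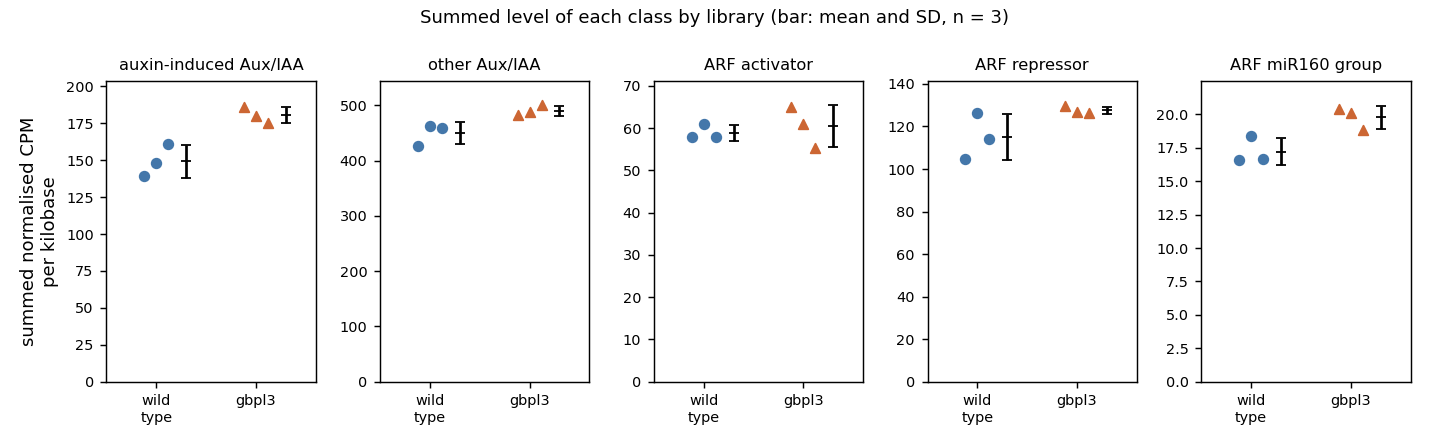
Summed normalised CPM per kilobase (vertical axes, from 0) of 5 classes in each wild-type library (circles) and gbpl3 library (triangles), with mean and SD (n = 3). The auxin-induced Aux/IAA sum is 149 ± 10.9 in wild type and 180 ± 5.38 in gbpl3, without overlap. The sums of other Aux/IAA genes, repressor ARFs and the miR160 group do not overlap either. Only activator ARFs, at 58.9 ± 1.80 and 60.4 ± 4.92, overlap.

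The other steps of the pathway were read from 5 further lists, of which 46 of 66 genes were tested, with 3 higher and 1 lower. The called share of 8.70% was near the 10.7% of all tested genes. Upstream, none of the 10 genes of the TIR1/AFB receptors and their SCF ligase was called by edgeR or DESeq2 or had an unadjusted p below 0.05; TIR1 had a log2 fold change of 0.068 (95% interval -0.17 to 0.30). The 5 TOPLESS corepressors had none called by edgeR or DESeq2 and none at an unadjusted p below 0.05, with a median of -0.02. TAA1, the aminotransferase at the first step of auxin synthesis from tryptophan, was the only one of 7 tested synthesis genes called.

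TAA1 had 22.2, 19.4 and 21.7 normalised CPM for wild type, and 13.4, 14.7 and 14.9 for gbpl3. The genotypes did not overlap, and TAA1 fell by a log2 fold change of -0.56 (SE 0.14, 95% interval -0.85 to -0.26, adjusted p = 0.0160). Leaving out a library ended the TAA1 call in 4 of 6 cases, with adjusted p of 0.0533 and 0.0655 without wild-type replicates 1 and 3 and of 0.0801 and 0.0557 without gbpl3 replicates 1 and 3. Of the 11 YUC genes, which act after TAA1, 5 were tested and none was called by edgeR or DESeq2 or had an unadjusted p below 0.05.

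The 22 auxin output genes, of the GH3, LBD, GATA and SAUR families, were listed with earlier results of these data known. Of them, 16 were tested and 3 rose (18.8%, beside 6.06% of all tested genes called higher). This share includes SAUR9, which passed the count filter only through its gbpl3 libraries. The median log2 fold change was 0.64, and 14 of 16 were positive. The other 2 were GH3.1, at -1.07 (95% interval -2.13 to -0.0062, adjusted p = 0.208) with all gbpl3 libraries below all wild-type libraries, and GH3.3, at -0.13 (95% interval -0.41 to 0.15, adjusted p = 0.611); both are named after their values were seen. GH3.5 (WES1) and GH3.6 (DFL1), enzymes that conjugate auxin to amino acids, rose. GH3.5 went from 24.4 ± 1.51 to 42.4 ± 1.85 CPM and GH3.6 went from 57.1 ± 6.24 to 92.3 ± 9.61 CPM (SD, n = 3), with adjusted p of 2.00e-04 and 6.94e-04, and both were called in every fit run. All 10 SAUR genes tested, which code for small proteins of cell expansion, had positive fold changes with a median of 0.64, but 1 was called. It was SAUR9, with 3, 0 and 5 counts for wild type, and 15, 17 and 23 for gbpl3. Its log2 fold change of 2.68 (SE 0.72, adjusted p = 0.0223) rested on few counts, and its adjusted p was 0.0620, 0.0560, 0.0656 and 0.135 without wild-type replicates 1 and 2 and gbpl3 replicates 1 and 3. Without wild-type replicate 1 or 2, 1 SAUR gene other than SAUR9 was called in each fit. Without gbpl3 replicate 2, 2 SAUR genes were called, and without gbpl3 replicate 1 or 3, none. SAUR19 to SAUR24 are near-identical neighbours between which reads may be shared. Beside a median of 0.64 for these output genes stood 0.31 for the auxin-induced Aux/IAA genes and 0.077 for the other Aux/IAA genes. ARF genes had 0.15 and all tested genes -0.0034. The remaining lists had 0.025 (receptors and SCF), -0.024 (corepressors), -0.46 (synthesis) and -0.064 (small RNA control). Differences between these medians were not tested.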

How the data were processed

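Per the labels' protocols, strand-specific Illumina libraries were made from total RNA of about 50 mg of seedlings. The authors deposited raw counts and FPKM values for each gene. The submitters' processing notes name HTSeq 0.6.1p1, HISAT2 2.0.4 and the TAIR10 build. How strand and reads matching several genes were handled is not given in the sources used here. The deposited FPKM divide by a gene length that equals the exon union in 99.0% of 14982 genes with 1 transcript but in 1.72% of 10649 genes with several, so levels per kilobase were computed from counts and the exon union of RefSeq TAIR10.1, which held 99.1% of identifiers.

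The test was edgeR's quasi-likelihood F test (version 4.0.16, R 4.3.3) after filterByExpr and TMM scaling, with Benjamini-Hochberg adjustment and a threshold of 0.05; the procedure was tested on simulated data. SEs and 95% intervals come from the same fit. Other settings tried were DESeq2 1.42.0, upper-quartile and RLE scaling, other count filters, a replicate block, each library left out, and limma 3.58.1 on log2 FPKM. No pair of libraries agreed within sampling noise.

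Members and lists were chosen with earlier results of these data known. Named genes were called members, the 3 highest per class by level, activator ARFs, IAA14, IAA17, members changed at least 2-fold (none) and called pathway genes; others were chosen after their values were seen. GBPL3 was taken to be AT5G46070, and auxin-induced and ARF classes were assigned, from background knowledge.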

Additional observations from a re-analysis of the deposited data

How the results depend on the processing

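With 3 libraries a genotype, the median SE of a member's log2 fold change was 0.15 and the smallest called value was 0.63. The count of called members was 3; DESeq2, RLE scaling, upper-quartile scaling, no filter on low counts and a filter of 1 CPM in 3 libraries each gave 4, since 1 other Aux/IAA gene, IAA7, was added (adjusted p = 0.0210 to 0.0499). Leaving out each library gave 1 (without gbpl3 replicate 1) to 6 (without wild-type replicate 2) called members, 0 to 1 auxin-induced Aux/IAA genes, 0 to 2 other Aux/IAA genes, 1 to 3 ARF genes, 2 to 6 genes of the 5 pathway lists and 949 to 2681 of all genes (2222 with all libraries), with 949, 1071 and 1377 without gbpl3 replicates 3 and 1 and wild-type replicate 3. Limma on FPKM called 0 members, 0 auxin-induced Aux/IAA and 0 ARF genes, and 814, 752 or 521 of all genes; the cause was not tested. ARF5, ARF11 and IAA29 then had adjusted p of 0.0659 to 0.1004, 0.0739 to 0.112 and 0.124 to 0.178.

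Same-numbered libraries did not deviate together (correlations -0.0461, -0.0647 and 0.0355). This gave no sign that the numbers pair the samples, but 3 libraries a genotype are too few to exclude it. With the replicate number as a block, 2 members (ARF5 and ARF11), 0 auxin-induced Aux/IAA genes (IAA29 0.71, adjusted p = 0.0546) and 1534 of all genes were called.

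Among the 17 members named by the rule above, uncalled log2 fold changes near 0 changed sign in 9 cases. These were ARF6, to 0.000805 with upper-quartile scaling, and 5 genes with a library left out. Members outside the 17 changed sign too and are not in that count. With upper-quartile scaling, 12 of 15 ARF genes were positive, beside 10 in the main fit. The values that follow are for those 5 genes. Their lowest and highest values were -0.039 (without wild-type replicate 1) and 0.13 for IAA3, -0.061 and 0.017 (without gbpl3 replicate 3) for IAA9, -0.15 and 0.050 for IAA17 (above 0 without wild-type replicate 1 or 2), -0.046 and 0.050 for ARF6, and -0.084 and 0.080 for ARF7 (both above 0 without wild-type replicate 2 or gbpl3 replicate 3). With the deposited FPKM's own gene lengths, the level per length of 13 of 17 named members moved by more than the spread between replicates.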
